A study of Homo sapiens with 2 samples.

Results

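NF-kB is a family of dimeric transcription factors, and the 10 genes described here encode its 5 subunits (NFKB1, NFKB2, RELA, RELB and REL) and 5 genes of its feedback control (NFKBIA, NFKBIE, NFKBIZ, TNFAIP3 and BIRC3). They were chosen by gene symbol, with earlier results of these data known. All 10 were found among the 26506 genes of the deposited tables. The cells were an established line of human corneal surface epithelium (ATCC CRL-11515), kept for 72 hours in keratinocyte serum-free medium (KSFM) or in a second medium, termed special in the labels. The special medium was DMEM/F12 with 1 mM calcium chloride, fetal bovine serum at 10%, an antibiotic/antimycotic mix, and 10 ng/mL of EGF. Base medium, serum, EGF and calcium were all set together, so their parts cannot be told apart, and the make-up of KSFM is not given in the sources used here. RNA of 3 independent cultures was pooled into 1 library per medium, so there is no replicate spread, no test between media and no p-value. Every ratio below is special medium over KSFM, and the range after it is an exact 95% interval for counting error only.

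In resting cells NF-kB dimers are held in the cytoplasm by IkB proteins. Signals such as tumour necrosis factor, interleukin-1 or microbial products activate the IkB kinase (IKK), which marks IkB for destruction and frees dimers such as p50 with RelA (the canonical route). A slower, non-canonical route processes the NFKB2 product p100 to p52, which pairs with RelB. NF-kB drives transcription of several of its own subunits and inhibitors, so the pathway is known for feedback, and in surface epithelia it is known for the response to wounding and infection.

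The sites that NF-kB dimers bind are decamers that typically start with GGG and end with CC. RefSeq promoter windows on GRCh38.p14 were matched for 8 of the 10 genes, all but RELB and NFKBIE, and the 250 bases before the transcript start were searched on both strands. The letters GGGAA, then any 3 bases, then CC were found in 4 of the 8 windows (NFKB1, REL, NFKBIA and NFKBIZ) and in 6.03% of 27305 windows of all genes. The looser letters GGGA, any 4 bases and CC, which include the first, were found in 6 of the 8, NFKB2 and TNFAIP3 being added, and in 22.1% of all windows. The standard degenerate NF-kB consensus decamer, a search added after the windows had been seen, was found in 6 of the 8 and in 5.05% of all windows. Those 6 were NFKB1, REL, NFKBIA, NFKBIZ, TNFAIP3 and BIRC3. Several of these genes are listed as members because they are known NF-kB targets, so the count is a description and not independent evidence. All windows include those of genes not tested. Among the 10137 tested genes with a window, the shares were 7.21% (GGGAA letters), 28.0% (GGGA letters) and 5.95% (decamer). The RELA window held none of the letters, and its RefSeq start lies 763 bases from the outermost start in GENCODE release 29. The stretches below are those of feedback genes with a high ratio and, for contrast, of NFKB1, with capitals marking the consensus decamer on either strand. Windows are cut before the first annotated exon base of the gene itself, and for TNFAIP3, where both decamers lie in an annotated first exon, only the decamers are shown.
NFKBIA, chr14:35404750-35404999, minus strand: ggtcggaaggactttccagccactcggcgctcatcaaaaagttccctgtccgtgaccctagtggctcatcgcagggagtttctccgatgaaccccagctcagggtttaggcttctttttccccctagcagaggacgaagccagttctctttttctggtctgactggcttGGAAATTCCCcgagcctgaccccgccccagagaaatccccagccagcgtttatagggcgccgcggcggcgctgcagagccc
BIRC3, chr11:102317234-102317449, plus strand: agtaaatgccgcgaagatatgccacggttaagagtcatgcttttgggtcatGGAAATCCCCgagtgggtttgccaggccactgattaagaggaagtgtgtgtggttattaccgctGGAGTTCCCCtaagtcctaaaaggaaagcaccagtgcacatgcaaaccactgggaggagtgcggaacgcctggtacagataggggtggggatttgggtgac
NFKB1, chr4:102501109-102501328, plus strand: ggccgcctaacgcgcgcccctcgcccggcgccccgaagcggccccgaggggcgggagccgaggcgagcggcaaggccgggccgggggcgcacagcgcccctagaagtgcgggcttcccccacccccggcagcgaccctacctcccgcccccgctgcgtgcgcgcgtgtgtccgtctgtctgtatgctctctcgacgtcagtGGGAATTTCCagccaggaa
TNFAIP3, chr6:137867192-137867213, plus strand: GGAAAGTCCCgtGGAAATCCCC
Most of the NFKB1 stretch, its decamer included, also lies in an exon of the antisense transcript AF213884.3, from 102500841 to 102501319. The NFKBIA decamer starts 81 bases before the transcript start, the NFKB1 decamer 49 bases before it, and the BIRC3 decamers 199 and 135 bases before it. In the REL window the overlapping matches form the stretch GGGAAATTCCC, which starts 47 bases before the RefSeq start. That stretch lies in an annotated exon of REL itself, as the TNFAIP3 decamers do in theirs. The NFKBIZ decamer, GGGAATTTCC, has the same letters as that of NFKB1 and starts 223 bases before the start.

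Of the 10 genes, 5 were higher in the special medium, 0 were lower and 5 were neither. A gene was called when it reached 1 CPM (a count scaled to library size) in either library, differed by at least 2-fold and had an interval excluding equality. By the same rule 9.86% of the 13632 genes tested were called higher and 6.77% lower. By a 4-fold rule 1 of the 10, BIRC3, was called higher, against 2.99% of all genes tested. All 10 genes passed the 1 CPM filter, and all 10 had ratios above 1. The median log2 ratio of the 10 was 1.12, against −0.00042 over all genes tested, whose middle 95% ran from −1.53 to 2.20. In log2 units, counting error amounts to 0.41 on each side at 100 counts per library and to 0.13 at 1000. Depth was 21604652 counts for KSFM and 16900472 for the special medium.

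Among the subunits, the genes of the non-canonical pair were higher and the others were not called. NFKB2, on chromosome 10 from 102394110 to 102402529, encodes p100, which is both an inhibitor and the precursor of p52. It had 994 (KSFM) and 2048 (special medium) counts, or 27.8 and 81.8 TPM (the deposited measure of abundance, adjusted for transcript length). That is 2.63-fold higher by counts (2.43 to 2.84). RELB, on chromosome 19 from 45001430 to 45038198, encodes the partner that p100 retains and p52 accompanies. It had 354 and 857 counts, or 13.8 and 48.2 TPM, and was 3.09-fold higher (2.72 to 3.50). Among the log2 ratios of all genes tested, NFKB2 lay at percentile 94.2 and RELB at percentile 95.6.

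The canonical subunits differed less between the media. RELA, on chromosome 11 from 65653596 to 65663094, encodes p65, the main transactivating subunit. It had 2117 and 1991 counts, or 72.7 and 98.1 TPM, and its ratio was 1.20 (1.13 to 1.28). NFKB1, on chromosome 4 from 102501329 to 102617302, encodes p105, the precursor of p50. It had 1243 and 1309 counts, or 26.6 and 39.9 TPM, at a ratio of 1.34 (1.24 to 1.45). REL, on chromosome 2 from 60881521 to 60931610, encodes c-Rel, a subunit best known in lymphocytes. It had 297 and 274 counts, or 3.31 and 4.34 TPM, and its ratio of 1.18 was the only one of the 10 whose interval (0.995 to 1.39) included equality. These 3 subunits lay between percentiles 64.9 and 74.6 of all log2 ratios. Counting error alone leaves RELA and NFKB1 above equality, but with no replicate libraries such small ratios cannot be set against the variation between cultures.

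**Figure D1:**
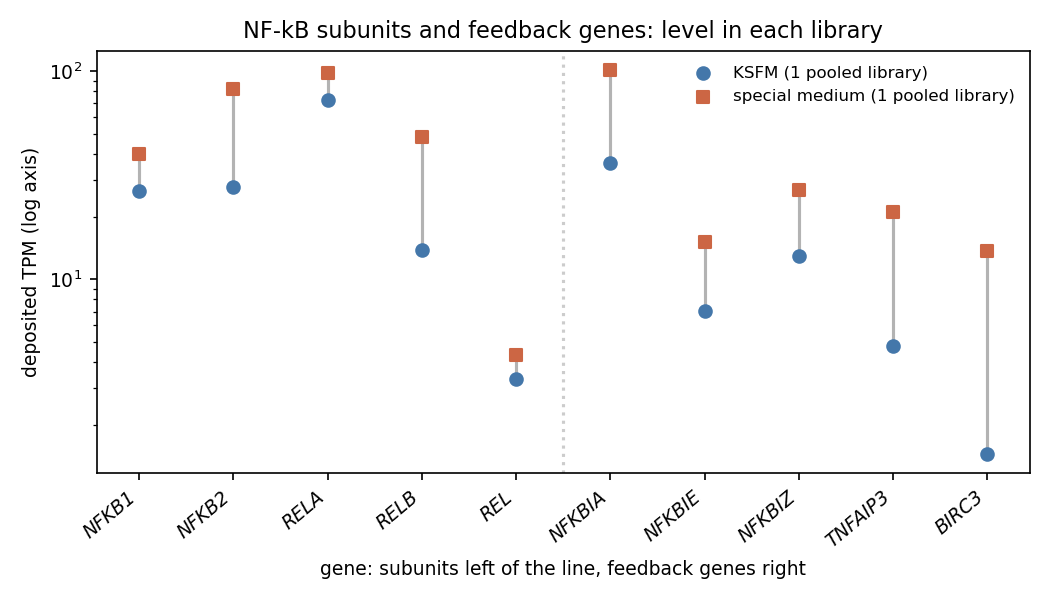
Deposited TPM (log axis) of each gene in the 1 pooled library per medium, with circles for KSFM and squares for the special medium. Each square lies above its circle, by the longest distance for BIRC3 (1.45 and 13.6 TPM) and by a short one for RELA (72.7 and 98.1 TPM).

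The make-up of subunit RNA therefore differed between the libraries. The TPM of the 5 subunits summed to 144 in KSFM and 272 in the special medium. RELA supplied 50.4% of that sum in KSFM and 36.0% in the special medium. NFKB2 went the other way, from 19.3% to 30.0%, and RELB from 9.60% to 17.7%. NFKB1 supplied 18.4% and 14.7%, and REL 2.29% and 1.59%. The TPM table carries no depth of its own, so these shares have no interval. As shares of the subunits' counts, which do not adjust for length, RELA made up 42.3% of 5005 counts in KSFM (exact binomial 95% interval 40.9 to 43.7%) and 30.7% of 6479 in the special medium (29.6 to 31.9%). These intervals cover counting error only. The 5 shares make up 1 whole and are not independent: NFKB1 and REL had smaller shares in the special medium although their ratios were 1.34 and 1.18.

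**Figure D2:**
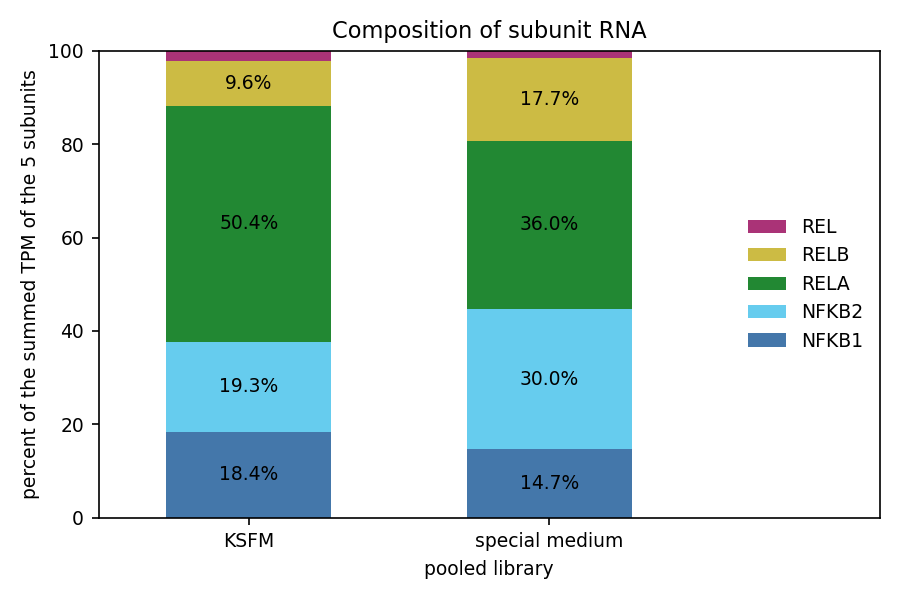
Share of each subunit gene in the summed TPM of the 5 subunits (percent, from 0 to 100), 1 stacked bar per pooled library. The RELA block shrinks from 50.4% to 36.0%, while NFKB2 widens from 19.3% to 30.0% and RELB from 9.60% to 17.7%.

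Of the 5 feedback genes, 3 were higher (60%, against 9.86% of all genes tested) and 2 were neither. Their median log2 ratio was 1.30, against 0.43 for the 5 subunits. BIRC3, on chromosome 11 from 102317450 to 102339403, encodes the ubiquitin ligase cIAP2, which acts in tumour necrosis factor receptor complexes and limits cell death. It was the least abundant of the 10 in KSFM, at 116 counts and 1.45 TPM, and had 714 counts and 13.6 TPM in the special medium. Its ratio of 7.85 (6.44 to 9.64) had rank 184 among the 13632 genes tested. By TPM the ratio was 9.39. The gap between its TPM and count log2 ratios, 0.26, lay at percentile 97.1 of all genes, while the other 9 genes had gaps of 0.16 to 0.19 around the general 0.17. The cause of that gap was not tested. BIRC2, which encodes the close paralog cIAP1, had 2686 and 2283 counts and a ratio of 1.08 (1.02 to 1.15). Its gap between TPM and count log2 ratios was also wide, 0.24, at percentile 95.3.

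TNFAIP3, on chromosome 6 from 137867188 to 137883312, encodes A20, a ubiquitin-editing enzyme that shuts down signalling upstream of IKK. It had 260 and 796 counts, or 4.80 and 20.98 TPM, and was 3.90-fold higher (3.39 to 4.51). NFKBIA, on chromosome 14 from 35401511 to 35404749, encodes IkB-alpha, the fast-cycling inhibitor that retrieves dimers from the nucleus. It had 624 and 1207 counts, or 36.1 and 101.4 TPM, and was 2.47-fold higher (2.24 to 2.72). With that, NFKBIA went from second behind RELA among the 10 by TPM to first, although the TPM values of the pair in the special medium, 101.4 and 98.1, are close.

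The other two feedback genes lay just under the 2-fold line. NFKBIE, on chromosome 6 from 44258166 to 44265788, encodes IkB-epsilon, a cytoplasmic inhibitor that acts with a delay. It had 205 and 308 counts, or 7.03 and 15.2 TPM, at a ratio of 1.92 (1.60 to 2.30). NFKBIZ, on chromosome 3 from 101827991 to 101861022, encodes IkB-zeta, an atypical nuclear member that can also switch target genes on. It had 581 and 831 counts, or 12.98 and 26.9 TPM, at a ratio of 1.82 (1.64 to 2.03). Both intervals lay above equality and included 2-fold, so the counts do not place either gene on one side of that line. On log2(TPM + 1), where the median over all genes tested is 0.15, NFKBIE was past 2-fold. On log2(TPM + 0.1) NFKBIZ was past it too, and neither gene was once log2(TPM + 1) ratios were centred on that median.

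**Figure D3:**
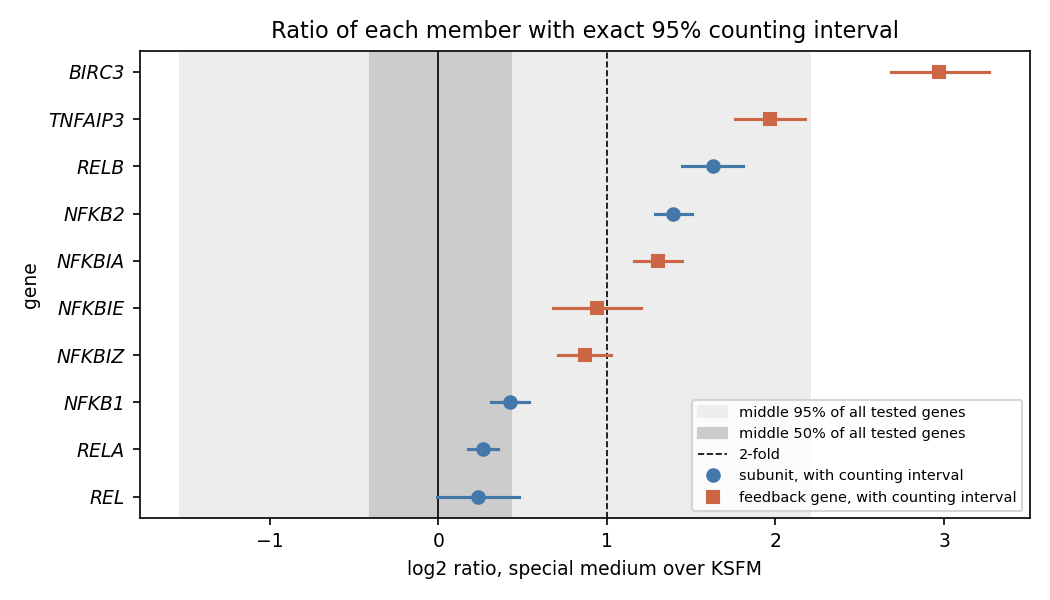
Log2 ratio of special medium over KSFM for each gene (points) with its exact 95% counting interval (bars), circles for subunits and squares for feedback genes. Grey bands span the middle 50% and middle 95% of the 13632 genes tested. BIRC3 at 2.97 lies outside the wider band, while REL at 0.23 and RELA at 0.26 lie inside the narrower one.

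The order of the ratios ran BIRC3, TNFAIP3, RELB, NFKB2, NFKBIA, NFKBIE, NFKBIZ, NFKB1, RELA, REL. Neighbours in that order were compared by the ratio of their ratios, which does not depend on library scaling, with an exact conditional 95% interval. BIRC3 exceeded TNFAIP3 by 2.01 times (1.57 to 2.58). Intervals included 1 for NFKB2 against NFKBIA (0.940 to 1.21), NFKBIE against NFKBIZ (0.851 to 1.30) and RELA against REL (0.852 to 1.22), so those pairs are not ordered by these counts. For the other 6 neighbouring pairs the interval excluded 1, most narrowly for NFKB1 against RELA (1.01 to 1.24) and RELB against NFKB2 (1.01 to 1.36).

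Set against RELA within each library, the feedback genes took a larger place in the special medium. For each unit of RELA TPM there were 0.497 units of NFKBIA in KSFM and 1.03 in the special medium. For TNFAIP3 the values were 0.0660 and 0.214, and for BIRC3 0.0199 and 0.139. NFKBIE went from 0.0967 to 0.155 and NFKBIZ from 0.179 to 0.275. By counts these changes were 2.06-fold for NFKBIA (1.83 to 2.31), 3.26-fold for TNFAIP3 (2.79 to 3.81) and 6.54-fold for BIRC3 (5.32 to 8.11). Among the subunits, the change against RELA was 2.19-fold for NFKB2 (1.99 to 2.42) and 2.57-fold for RELB (2.24 to 2.96), and for REL it was 0.981 (0.820 to 1.17).

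The rest of the pathway was read from lists of 127 further genes, drawn up with earlier results of these data known. Of the 127, 102 were at 1 CPM or more. Of these 102, 32 were higher, 5 lower and 65 neither, with a median log2 ratio of 0.38. The higher ones are 31.4% of the 102, against 9.86% of all genes tested, and the lower ones 4.90%, against 6.77%. Of the 102, 9 reached 1 CPM in 1 library only, where passing the filter and differing go together, and 8 of these were called. Among the 93 at 1 CPM in both libraries 26 were higher and 3 lower. The share of all genes under this stricter filter was not computed. The 9.86% and 6.77% are therefore not a like background for such counts, here or in the lists below. Among other IkB proteins, BCL3, a nuclear co-regulator that binds p50 and p52 dimers, was 3.36-fold higher (2.74 to 4.14) on 131 and 345 counts. NFKBIB, which encodes the cytoplasmic inhibitor IkB-beta, was lower, from 1278 to 437 counts and from 72.5 to 31.6 TPM, with a log2 ratio of −1.20 (−1.36 to −1.04). In at least 1 library its deposited count is not a whole number, as division of shared reads between features gives, so its level is less certain. The same holds for IRAK2, IRF1, SAA2, TLR1, TLR6 and CFLAR, and for the markers KRT5, KRT14, LYZ and PTPRC, all named below. NFKBIA and NFKBIB thus changed places: NFKBIB had the higher TPM in KSFM (72.5 against 36.1) and NFKBIA in the special medium (101.4 against 31.6). NFKBID, the third on that list, had 78 and 70 counts and was neither.

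Of 12 IKK and upstream kinase genes 2 were higher (16.7%, against 9.86% of all genes tested) and 0 lower. The median log2 ratio of the 12 was 0.35. TAB3, at a ratio of 1.999 (1.84 to 2.17), lay at the 2-fold line. The count of 2 was 3 by total counts and on TPM with a pseudocount of 1 or 0.1. It was 1 with a filter of 10 CPM. IKBKE, which encodes the IKK-related kinase IKK-epsilon, was 10.3-fold higher (8.06 to 13.4), from 72 to 582 counts. MAP3K8, which encodes the kinase TPL2 that p105 holds inactive, was 3.68-fold higher (2.58 to 5.33). The canonical IKK genes were not called: CHUK had a log2 ratio of −0.46, IKBKB 0.78 and IKBKG 0.18. MAP3K14, which encodes NIK, the kinase of the non-canonical route, had 413 and 405 counts and a log2 ratio of 0.32 (ratio interval 1.09 to 1.44).

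Of 20 adaptor and ubiquitin ligase genes 2 were higher and 0 lower, with a median log2 ratio of 0.29, a share (10%) close to that of all genes. Both act in Toll-like and interleukin-1 receptor signalling: IRAK2 was 9.04-fold higher (6.29 to 13.4) from 34 counts, and MYD88 3.24-fold higher (2.73 to 3.85). Other inhibitors of the pathway numbered 2 higher and 2 lower of 16, each 12.5%, against 9.86% and 6.77% of all genes tested. Their median log2 ratio was −0.03. TNIP1, which encodes an A20-binding protein, was 2.53-fold higher (2.41 to 2.65), and ZC3H12A, which encodes the ribonuclease regnase-1, was 2.39-fold higher (2.10 to 2.73). COMMD1, a factor in the turnover of nuclear RelA, had a log2 ratio of −1.20 by counts (−1.45 to −0.97), but −0.96 by TPM, short of 2-fold. IRAK3, an inhibitory kinase-like protein, had a log2 ratio of −2.09 by counts, on 103 and 19. CYLD, a deubiquitinase that works beside A20, had 1087 and 1052 counts and was neither.

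**Figure D4:**
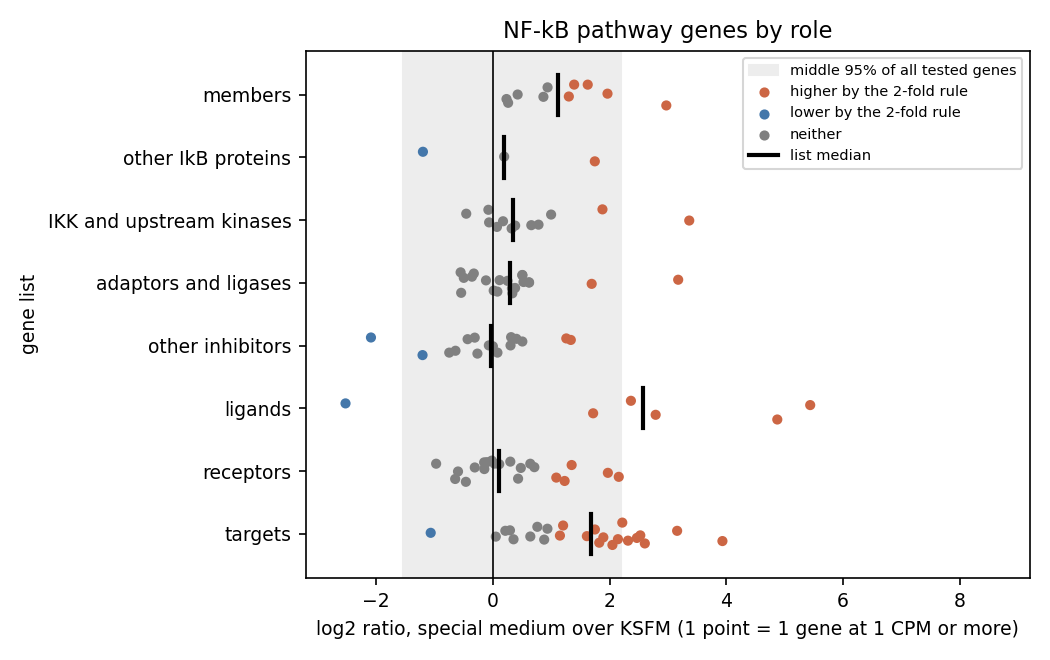
Log2 ratio of special medium over KSFM for each pathway gene at 1 CPM or more, by list, with 1 point per gene, list medians as black bars and the middle 95% of all genes tested as a grey band. Most kinase, adaptor and receptor genes are grey, at medians of 0.35, 0.29 and 0.11, while the ligand points include genes that passed the filter in 1 library only.

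Ligands and target genes held most of the higher calls. Of 17 ligand genes only 6 reached 1 CPM. Of those, 5 were higher (83.3%, against 9.86% of all genes tested) and 1 was lower (16.7%, against 6.77%). LTB, TNFSF10 and TNFSF13B reached 1 CPM only in the library where they were high, so their calls are nearly fixed by the filter. The 3 that reached it in both libraries were all higher. LTB, which encodes lymphotoxin beta, a ligand of the non-canonical route, had 3 and 69 counts, a ratio of 29.3 (9.63 to 146). TNFSF10, which encodes the death ligand TRAIL, had 2 and 68 counts (ratio interval 11.6 to 365), and IL1B had 158 and 857. TNFSF13B, which encodes the B cell factor BAFF, was the lower one, on 22 and 3 counts. TNF itself had 0 and 10 counts, below the filter in both libraries. Receptors were 5 higher (23.8%, against 9.86%) and 0 lower of 21, with a median log2 ratio of 0.11. TLR1 was called but reached 1 CPM in the special medium only. Of the 19 receptors at 1 CPM in both libraries 4 were higher. The count of 5 was 2 on TPM with a pseudocount of 1, centred or not, and 2 with a filter of 10 CPM. It was 1 when the interval had to lie wholly beyond 2-fold. The death receptor gene TNFRSF21 was 3.92-fold higher (3.70 to 4.15) and the RNA sensor TLR3 2.55-fold (1.96 to 3.34). TLR1 and TLR6, on 6 and 21 and on 25 and 46 counts, overlap on the same strand, so the split of reads between them is uncertain. The lymphotoxin receptor gene LTBR, at 106 and 130 TPM, and CD40, at 102 and 114 TPM, were neither.

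Of 34 listed NF-kB target genes outside the 10, 24 reached 1 CPM, and 15 of these were higher, 1 lower and 8 neither. The higher ones are 62.5% of the 24, against 9.86% of all genes tested, and the lower one 4.17%, against 6.77%. Of the 20 that reached 1 CPM in both libraries 12 were higher and 0 lower. The other 4, CXCL3, SAA2, IL32 and MMP9, passed through 1 library only. CXCL8, the neutrophil chemokine interleukin-8, had 80 and 959 counts, and IRF1, an interferon regulatory factor gene, was 5.76-fold higher (5.24 to 6.35) on 525 and 2373. PLAU, the urokinase gene, had 2878 and 13726 counts, and SAA2, a serum amyloid gene with near-identical relatives, 14 and 98. Neither of the survival genes CFLAR (log2 ratio 0.64) and BCL2L1 (0.21) was called, and the lower gene was the protease gene MMP9, on 40 and 15 counts. These target genes also respond to other factors, and the list was drawn up with earlier results of these data known.

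The epithelial label was partly borne out by markers. EPCAM (301 and 449 TPM), CDH1 (197 and 176 TPM) and KRT18 (1128 and 2503 TPM) were abundant. Of 10 listed markers 6 reached 1 CPM, and KRT8 was the 1 called higher (16.7%, against 9.86% of all genes tested). KRT18, at a ratio of 1.94 (1.91 to 1.98), lay just under the 2-fold line. KRT5 was at 68.65 and 51.12 TPM and was neither, and PAX6 was low (1.89 and 3.66 TPM). KRT14 had 4 and 10 counts and TP63 5 and 13, below the filter in both libraries. The corneal keratins KRT3 and KRT12 had at most 1 count. Since c-Rel and RelB are abundant in white blood cells, leukocyte markers were read beside them. PTPRC, which encodes the pan-leukocyte protein CD45, had 1 and 0 counts, and CD3E and MS4A1 had 0 in both libraries. LYZ, which encodes lysozyme, was lower, on 48 and 11 counts. It was 1 of 3 leukocyte markers tested (33.3%, against 6.77% of all genes tested). LYZ reached 1 CPM in KSFM only, where passing the filter and differing go together. CSF1R had 78 and 45 counts and was neither. The list's summed TPM was 64.4 and 73.4, of which CD68, a lysosomal gene not restricted to leukocytes, made up 59.5 and 70.9. Of 8 fibroblast markers 1 reached 1 CPM, COL1A1 at 2.43 and 2.97 TPM, and the list's summed TPM was 2.64 and 3.25. Of 5 endothelial markers only CDH5 was tested, and it was higher, on 3 and 236 counts (against 9.86% of all genes tested). CDH5 reached 1 CPM in the special medium only, where passing the filter and differing go together. The list's summed TPM was 0.30 and 7.74, with TEK at 0 in both. The part of CDH5 in the ratios above was not tested. Of 5 melanocyte markers none was called, MITF being at 7.42 and 9.48 TPM, with TYR at 0 in both and a summed list TPM of 11.9 and 16.0. Of 30 genes looked up, the 10 members and 20 named pathway genes, 9 (RELA, TNFAIP3, COMMD1, IRAK3, IKBKE, TNFSF10, TNFSF13B, PLAU and IRF1) overlap a gene on the opposite strand in GENCODE release 29. Since use of strand in counting is not stated, reads of such pairs may not be told apart. In such bulk RNA, a change in the number of cells expressing a gene and a change in RNA per cell cannot be told apart.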

How the data were processed

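Poly(A) RNA was sequenced from 1 pooled library per medium, made with a stranded kit per the labels' protocols. Tools listed in the submitters' processing notes are RSEM, HISAT2 2.1.0, fastp 0.20.0 and FastQC 0.11.9, on GRCh38. For RSEM no version is stated, and the strandedness option is not given in the sources used here, nor is the annotation release. One table gives the estimated counts the authors deposited, not whole for 11.3% (KSFM) and 8.05% (special medium) of genes, while all 20 values of the 10 genes were whole. The authors also deposited TPM values, which sum to about the same total in each library.

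Counts were rounded and scaled by edgeR 4.0.16 TMM factors. Each ratio has an exact 95% Clopper-Pearson interval given the sum of both counts. PCR copies were not told apart, for want of molecular identifiers, so intervals cover counting error only. A count of 0 was set to 3 for a ratio, and no ratio was taken where both counts were at or below 3. Calculations were tested on simulated counts. Gene coordinates came from GENCODE release 29 and promoter sequences from RefSeq, GRCh38.p14.

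Genes named are the 10 members and, per pathway list, up to 4 called genes with the largest absolute log2 ratios; others named, such as pathway members not called, were chosen after their values were seen. The members and lists were chosen with earlier results of these data known. No test could be run between media. Alternatives were scaling by total counts, by upper quartile or by DESeq2 1.42.0, TPM with a pseudocount of 1 or 0.1, centred TPM, filters of 10 CPM or none, a 4-fold rule and an interval wholly beyond 2-fold. R 4.3.3, Python 3.11.15 and scipy 1.17.1 were used.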

Additional observations from a re-analysis of the deposited data

How the results depend on the processing

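No paired analysis was possible because each medium has 1 library. Every one of the 10 genes kept a ratio above 1 under the 6 other scalings and units tried, and BIRC3, TNFAIP3, RELB, NFKB2 and NFKBIA stayed past 2-fold in all of them. The count of members called higher was 5 under each count scaling, 6 on TPM with a pseudocount of 1, 7 with 0.1, and 1 (BIRC3) by a 4-fold rule, which 2.99% of all genes tested passed upward; TNFAIP3, at 3.90-fold, did not. The member median log2 ratio was 1.29 on TPM with a pseudocount of 0.1. The 32 higher pathway genes became 16 by the 4-fold rule. The 5 lower ones became 1 on TPM with a pseudocount of 1, 3 with 0.1, 2 on centred TPM, 2 with a filter of 10 CPM, 2 by the 4-fold rule, 2 with an interval wholly beyond 2-fold and 3 among genes at 1 CPM in both libraries, a setting chosen after seeing the data. Over all genes tested, 1344 were higher and 923 lower on counts. On TPM, where calls used the 2-fold line without an interval, 1266 and 349 were with a pseudocount of 1. With a pseudocount of 0.1 these were 1671 and 605. Centring the log2(TPM + 1) ratios on their median of 0.15 gave 928 and 536. The cause of these differences was not tested. By counts in place of TPM, the share of subunit RNA changed by −11.6 percentage points for RELA (−14.4 on TPM), 6.15 for RELB (8.10) and −1.71 for REL (−0.70). With the sum of the 5 subunits in place of RELA, itself higher in the special medium, the change was 1.49-fold for NFKBIA, 1.14-fold for NFKBIE, 1.10-fold for NFKBIZ, 2.31-fold for TNFAIP3 and 4.97-fold for BIRC3.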

Other observations

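The promoter search was also read over all genes, as a description. Of 603 tested genes with the NF-kB consensus decamer in the 250 bases before their RefSeq start, 13.8% were higher in the special medium and 5.31% lower. Of 9534 tested genes without it, 9.08% were higher and 6.09% lower. With the letters GGGAA, any 3 bases and CC, which were searched first, the shares higher were 10.3% of 731 genes and 9.29% of 9406. With GGGA, any 4 bases and CC they were 9.51% of 2838 genes and 9.30% of 7299, so the gap was seen mainly with the decamer, which was chosen after the members' windows had been seen. The median GC content of the windows was 66.4% with the decamer and 64.8% without it, and its part in these shares was not tested. Most higher genes did not carry the decamer in this window: it was present in 8.75% of them, 5.22% of the lower genes and 5.69% of the genes that were neither.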
